A study of Mus musculus with 4 samples.

Results

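Migratory dendritic cells of mouse inguinal white adipose tissue (iWAT) were taken as the cells that carried the CCR7 maturation genes. A cell barcode passed the cell filter with at least 300 detected genes, at least 500 unique molecular identifiers (UMIs, each standing for a captured transcript molecule) and at most 10% of its UMIs from mitochondrial genes. It was a member if it held at least 1 UMI of Fscn1 or Ccl22, UMIs of at least 3 of the 7 genes Ccr7, Fscn1, Cacnb3, Nudt17, Ccl22, Il4i1 and Socs2, and 0 UMIs of Cd3e, Cd79a and Pdgfra. Of 14931 cells that passed the filter, among 18336 barcodes in the files, 56 were members. These 10 genes chose the cells, so their levels are given below only as a description.

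The stromal vascular fraction, the cells other than adipocytes that digestion frees from a fat pad, was pooled from 8 iAdFASNKO mice and, apart from them, from 7 control C57BL/6 mice. From general knowledge, iAdFASNKO names mice in which Fasn, the fatty acid synthase gene, can be deleted from adipocytes by induction. The labels do not spell this out, and they give no driver, age, sex or treatment beyond the name. Magnetic beads split each pool into a lineage-positive fraction (Lin+), rich in immune cells, and a lineage-negative remainder (Lin-), so that each genotype and fraction was 1 library of pooled mice. With no second library of any group, genotype and library cannot be told apart, there is no test, and every interval below covers counting error only.

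Dendritic cells take up antigen in a tissue and, on maturing, switch on CCR7, the receptor that leads them along the chemokines of lymphatic vessels to the draining lymph node. A maturing dendritic cell stops taking up antigen, bundles actin into long processes with fascin (the product of Fscn1), activates NF-kB through RelB, and holds peptide-loaded MHC class II on its surface while transcribing its genes less. Both conventional lineages can enter this state: type 1 cells (Xcr1, Clec9a), which present captured antigen on MHC class I, and type 2 cells (Cd209a, Sirpa), which present mainly to helper T cells.

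Of the NF-kB pathway genes, 10 stood above both conventional classes in the values below, and the promoters of 4 of these are shown because they carry the NF-kB consensus. Each is the 250 bases before the RefSeq start site on the mouse build GRCm38.p6, written 5′ to 3′ on the strand of the gene, with capitals on the bases that match the consensus on either strand. Nfkb2 (chr19:46304487-46304736, plus strand) encodes the p100 and p52 partner of RelB, and Tank (chr2:61592847-61593096, plus strand) and Traf3 (chr12:111166120-111166369, plus strand) encode signalling adaptors. Tnip1 (chr11:54962941-54963190, minus strand) encodes an inhibitor that works with the A20 protein.
Nfkb2: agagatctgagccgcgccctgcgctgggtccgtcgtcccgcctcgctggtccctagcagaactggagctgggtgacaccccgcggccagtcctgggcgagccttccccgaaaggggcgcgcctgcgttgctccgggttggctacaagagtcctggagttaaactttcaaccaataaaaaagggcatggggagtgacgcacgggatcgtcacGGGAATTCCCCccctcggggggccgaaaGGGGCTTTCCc
Tank: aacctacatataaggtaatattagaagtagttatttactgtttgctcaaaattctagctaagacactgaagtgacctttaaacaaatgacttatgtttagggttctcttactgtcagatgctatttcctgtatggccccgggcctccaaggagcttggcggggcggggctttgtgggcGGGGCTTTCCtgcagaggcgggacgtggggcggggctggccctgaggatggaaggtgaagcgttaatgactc
Traf3: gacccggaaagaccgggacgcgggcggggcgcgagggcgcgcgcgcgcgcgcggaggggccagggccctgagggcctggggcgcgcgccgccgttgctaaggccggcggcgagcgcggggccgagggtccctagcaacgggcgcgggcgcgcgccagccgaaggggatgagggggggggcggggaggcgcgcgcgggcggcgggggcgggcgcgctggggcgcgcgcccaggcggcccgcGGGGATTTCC
Tnip1: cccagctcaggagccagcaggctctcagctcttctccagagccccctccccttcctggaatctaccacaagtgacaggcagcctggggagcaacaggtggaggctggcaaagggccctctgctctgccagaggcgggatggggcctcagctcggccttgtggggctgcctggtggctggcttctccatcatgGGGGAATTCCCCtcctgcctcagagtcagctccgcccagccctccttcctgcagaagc

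Of the 20 NF-kB genes, 17 had a promoter in the RefSeq table and 8 of these held a match, 47.1%, against 1894 of 27025 promoters of the same length, 7.01%. The matches not shown are in Rel, Nfkbia, Nfkbie and Tnfaip3, which did not stand above both conventional classes. A match was thus not particular to the genes higher in migratory cells. Among the genes of the mature dendritic program 4 of 26 promoters held one, 15.4%. The table held promoters of 5 of the 7 genes that chose the cells, and 0 of those 5 held the consensus in this window. A match is a run of letters and not a measured site, and overlapping matches of a promoter count as 1 promoter.

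Not every member carried the marker set cleanly. In 6 of the 56 cells the UMIs of some marker list of another cell class outnumbered those of the 7 genes, a split made after the cells were seen. In the 3 such Lin- control cells, 4 UMIs of the 7 genes stood beside 643 of progenitor markers, 8 beside 12 of monocyte markers and 7 beside 192 of smooth muscle or pericyte markers. The cell with 12 monocyte-marker UMIs also held 439 MHC class II UMIs, 1.83% of its total. It held 27 UMIs of Apol7c and 48 of Fabp5, genes described below, and 0 of Ccr7, Ccl22 and H2-M2. The monocyte list includes Plac8 and Ms4a6c, which stood higher in type 2 than in migratory cells, so the placing of this cell is uncertain. It is still left out below unless values are over all 56 members. The 1 such Lin+ iAdFASNKO cell had 3 UMIs of the 7 genes and 75 of progenitor markers. Both such Lin+ control cells carried endothelial markers, with 11 UMIs of the 7 genes against 263 and 8 against 232, and they were the deepest members at 37827 and 39939 UMIs. None of the Lin- iAdFASNKO members was of this kind. The split was not adjusted for depth. The 3 Lin- control cells held 12370, 23955 and 26542 UMIs, and the Lin+ iAdFASNKO cell 2289. The Lin- iAdFASNKO members had a median of 2885 and a maximum of 16351 UMIs. The part of depth in the split was not tested.

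**Figure D1:**
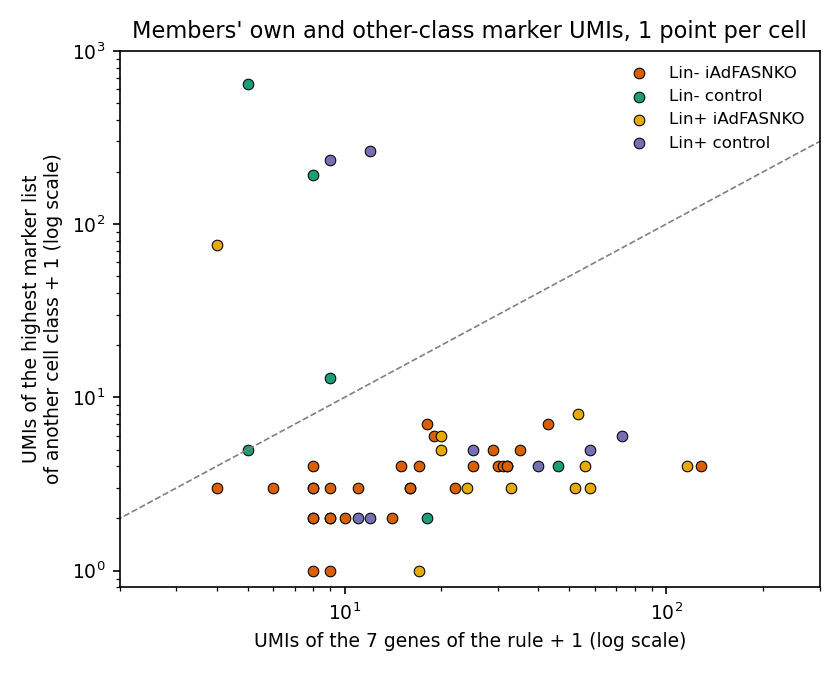
UMIs of the 7 genes of the rule (x axis, log scale, plus 1) against UMIs of the highest-scoring marker list of another cell class (y axis, log scale, plus 1), 1 point for each of the 56 members, coloured by library; the dashed line marks equal values. The 6 points above the line are 3 Lin- control, 1 Lin+ iAdFASNKO and 2 Lin+ control cells, and 1 Lin- control cell lies on it with 4 UMIs of each.

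The other 50 cells were 31 in Lin- iAdFASNKO and 3 in Lin- control, and 10 in Lin+ iAdFASNKO and 6 in Lin+ control, with 113259, 13644, 70085 and 26044 UMIs in all and medians of 2885, 4934, 6225.5 and 4140 UMIs a cell. Levels and ratios below are over these 50 cells unless they are said to be over all 56. The deepest cell held 14.4% of the UMIs in Lin- iAdFASNKO and 46.4% in Lin- control, and 23.7% in Lin+ iAdFASNKO and 41.9% in Lin+ control, so a ratio between genotypes is also given without the deepest cell of each library where that turns it or moves it by over 1.5 times. Pairs of libraries shared 109 to 170 barcode sequences. The barcodes of 3 members, 1 in Lin- control and 2 in Lin+ control, recurred in another library, all 3 belong to the 6 cells above, and their partners held at most 1 UMI of the 7 genes.

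Members at the edge of the rule were mostly of the same mixed kind. Of the 8 members with exactly 3 of the 7 genes, 5 had more UMIs of another class. Of the 85 cells just outside the rule with 2 of the genes, 76 did. The 99 cells with 3 or more of the genes that failed through Cd3e, Cd79a or Pdgfra included 97 of this kind, and 5 more cells lacked both Fscn1 and Ccl22. These counts follow in part from how the cells were picked. The 85 cells held a median of 3 UMIs of the 7 genes, and the 99 were picked on a gene of another class. Relb, a gene the rule did not use, had a UMI in 91.1% of the members and in 30.6% of the cells with 2 genes.

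Markers of migratory dendritic cells were present in each library, as the rule required of each cell. Ccr7 (chromosome 11, 99144196 to 99155077, build mm10) stood at 768 CPM in Lin- iAdFASNKO and 1393 CPM in Lin- control, and 828 CPM in Lin+ iAdFASNKO and 883 CPM in Lin+ control, where CPM, the scaled count, is a gene's UMIs over the summed UMIs of the member cells, times 1000000. Of the 19 Lin- control UMIs of Ccr7, 16 were in 1 cell, and without the deepest cells its levels were 805 CPM in Lin- iAdFASNKO and 410.5 CPM in Lin- control, a ratio of 1.96 in place of 0.552. Fscn1 was at 2022 CPM in Lin- iAdFASNKO and 586 CPM in Lin- control, and 2169 CPM in Lin+ iAdFASNKO and 2227 CPM in Lin+ control, with the 3 Lin- control cells the lowest. Ccl22, a chemokine that draws CCR4-bearing T cells, was at 406 CPM in Lin- iAdFASNKO and 1099 CPM in Lin- control, and 885 CPM in Lin+ iAdFASNKO and 1190.3 CPM in Lin+ control. Its Lin- ratio was 0.369, and 0.805 without the deepest cells. Over the 50 cells Ccr7 had a UMI in 38 cells, Fscn1 in 47 and Ccl22 in 26. Cacnb3, a calcium channel subunit, had one in 46. Fscn1 and Socs2 also occur outside dendritic cells in this tissue: of the 6221 cells in a gate of Col1a1-rich progenitors, with a median of 8385 UMIs, 30.8% held a UMI of Fscn1 and 28.6% of Socs2, while 0.305% held one of Ccr7. The median over the 50 cells was 3410 UMIs.

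Members made up a larger share of the Lin- library in iAdFASNKO than in control mice, while the Lin+ shares lay close together. In Lin- they were 31 of 4412 cells in iAdFASNKO, 0.703% (0.478 to 0.996, 95% Clopper-Pearson), against 6 of 3103 in control, 0.193% (0.0710 to 0.420), a ratio of 3.63 (1.52 to 8.70). In Lin+ they were 11 of 4494 cells in iAdFASNKO, 0.245% (0.122 to 0.438), against 8 of 2922 in control, 0.274% (0.118 to 0.539), a ratio of 0.894 (0.360 to 2.22). The intervals of the genotypes do not overlap in Lin- and overlap in Lin+. Without the 6 cells of another class the Lin- ratio was 7.27 (2.22 to 23.8) and the Lin+ ratio 1.08 (0.394 to 2.98). In Lin- that split, which was not adjusted for depth, removed control cells only. The Lin- libraries also differed in immune content and depth: 337 cells of iAdFASNKO and 191 of control held a UMI of Ptprc (the leukocyte antigen CD45), and the median was 4205.5 UMIs a cell in iAdFASNKO against 9138 in control. Over Ptprc cells alone, members were 11 of 337 in Lin- iAdFASNKO and 3 of 191 in Lin- control, a ratio of 2.08 (0.587 to 7.36). Members without a Ptprc UMI are left out of these counts. With every cell thinned to 2000 UMIs, which left out 970 shallower cells in iAdFASNKO and 302 in control, the Lin- ratio was 8.14 (1.90 to 34.8). That ratio rests on 20 members in iAdFASNKO and 2 in control. The Lin- cells left out included 10 members in iAdFASNKO and 0 in control. Thinning, which left out 1145 cells in iAdFASNKO and 581 in control, gave a Lin+ ratio of 2.80 (0.790 to 9.90), and a stricter cell filter one of 3.36 (0.699 to 16.2).

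**Figure D2:**
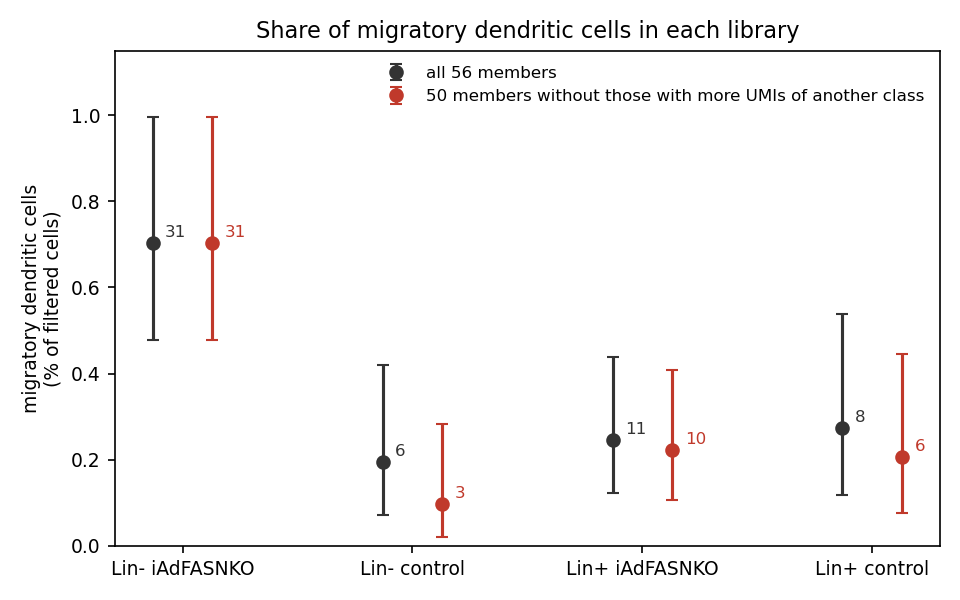
Members as a percent of the cells that passed the filter (y axis) in each library (x axis), for all 56 members (black) and for the 50 without those with more UMIs of another class (red); numbers beside the points are cells, bars are 95% Clopper-Pearson intervals. Lin- iAdFASNKO stands at 0.703% against 0.193% in Lin- control, while the Lin+ libraries lie at 0.245% in iAdFASNKO and 0.274% in control.

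Type 2 cells lay almost wholly in the Lin+ libraries, and migratory cells did not. In iAdFASNKO mice the migratory share in Lin- was 2.87 (1.44 to 5.70) times that in Lin+, and in control mice 0.706 (0.245 to 2.03) times. Type 2 cells, gated on Cd209a and at least 3 of 7 genes, numbered 23 in Lin+ iAdFASNKO and 53 in Lin+ control but 1 in Lin- iAdFASNKO and 2 in Lin- control, with Lin- over Lin+ ratios of 0.0443 in iAdFASNKO and 0.0355 in control. Type 1 cells, gated on at least 2 of 6 genes, numbered 16 in Lin- iAdFASNKO and 11 in Lin- control, and 6 in Lin+ iAdFASNKO and 19 in Lin+ control, with ratios of 2.72 (1.06 to 6.94) in iAdFASNKO and 0.545 (0.260 to 1.14) in control. The migratory and type 1 cells were both over-represented in Lin- of iAdFASNKO and not of control mice, and type 2 cells were scarce in Lin- of both. Among the members and both conventional classes together, members were 64.6% (49.5 to 77.8) in Lin- iAdFASNKO against 31.6% (12.6 to 56.6) in Lin- control. In Lin+ they were 27.5% (14.6 to 43.9) in iAdFASNKO against 10% (4.42 to 18.8) in control. These intervals overlap in both fractions. Conventional cells of both classes numbered 29 in Lin+ iAdFASNKO against 72 in Lin+ control. Without the 6 cells of another class the Lin- pair was 64.6% and 18.8%, and the Lin+ pair 25.6% and 7.69%, with intervals that overlap in Lin+ alone.

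Few transcripts told which lineage a migratory cell came from. Xcr1, Clec9a and Cd209a, which define the conventional gates, and Ccr2, the receptor of blood-derived precursors, had 0 UMIs in the 50 cells. The type 1 genes Xcr1, Clec9a, Irf8, Wdfy4 and Cadm1 together had 46 UMIs in 18 cells, and the type 2 genes Cd209a, Clec10a, Mgl2, Sirpa and Itgam together had 12 UMIs in 6 cells. Irf8 gave 39 of the 46, with 17 in 1 Lin+ iAdFASNKO cell. The type 1 sum stood at 206 CPM, against 373 in type 2 and 3292 in type 1 cells, so it was below both classes. The type 2 sum stood at 53.8 CPM, against 2518 and 147. These sums do not assign the migratory cells to a lineage. Of the 50 cells, 2 had both and 28 had neither. Batf3, a factor of type 1 cells, stood at 247 CPM, against 57.3 in type 2 and 193 in type 1 cells. Irf8, the factor that sets the type 1 fate, stood at 175 CPM, against 251 and 1859, and Irf4, a type 2 factor, had only 2 UMIs. Zbtb46, a factor of all conventional lineages, was at 103 CPM, against 32.3 and 67.5, and Id2, a regulator they share with other lymphoid and myeloid cells, was at 762 CPM, against 46.6 and 923. Ptprc was low for leukocytes, at 197 CPM in migratory cells, against 898 in type 2 and 730.2 in type 1 cells, and 22 of the 50 held a UMI.

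Compared with type 2 cells, 613 of 4738 measured genes, 12.9%, differed by at least 2-fold with the same direction in all 4 libraries: 6.08% were higher and 6.86% lower in migratory cells. A gene was measured with at least 20 UMIs over both classes. Compared with type 1 cells, 966 of 3504 did, 27.6%, with 8.88% higher and 18.7% lower. Over all 56 members 11.7% passed against type 2 cells (7.72% higher and 4.02% lower) and 18.6% against type 1 cells (8.48% higher and 10.1% lower). The members were chosen on genes of these contrasts, so they describe the cells and are no test, and the Lin- libraries hold only 3 type 2 cells: over all 56 members 669 genes passed against type 2, and 1546 with the Lin+ libraries alone.

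More NF-kB genes were higher than lower in the migratory cells. Genes that gated the conventional classes are left out of list counts against that class. Of 18 measured, 10 were higher than in type 2 cells and 0 lower, with a median log2 ratio of 1.43, against -0.48 over all measured genes. Of 16 measured against type 1 cells, 15 were higher and 0 lower, with a median of 2.18, against -0.35. The 10 genes above type 2 cells were also above type 1 cells. Relb, the NF-kB subunit of the alternative pathway, was at 883 CPM in Lin- iAdFASNKO and 1466 CPM in Lin- control, and 1199 CPM in Lin+ iAdFASNKO and 1728 CPM in Lin+ control, so it was high in every library, with 249 UMIs in 47 of 50 cells. Over the 50 cells its level was 1116 CPM, against 37.6 in type 2 and 30.7 in type 1 cells, ratios of 29.7 (19.0 to 48.8) and 36.4 (19.5 to 76.8). Birc2, a ubiquitin ligase that restrains the kinase of that pathway, stood at 659 CPM, against 26.9 and 30.7. Map3k14, that kinase (NIK), stood at 215 CPM, against 57.3 and 39.9. Traf1, an adaptor of TNF receptors, stood at 1081 CPM, against 269 and 89.0. Of the genes whose promoters are shown above, Nfkb2 had ratios of 2.91 and 3.76, Tank 6.08 and 9.32, Traf3 4.45 and 3.90 and Tnip1 2.94 and 4.87 over type 2 and type 1 cells. The canonical subunit Nfkb1 went the other way against type 2 cells, at 157 CPM against 369, and Nfkbiz, an inducible regulator, was at 17.9 against 296. Both are below 0.5-fold over the summed cells.

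Ccl5 was the most abundant chemokine by UMI count. It drew 1625 UMIs in 45 of the 50 cells, at 7286 CPM, against 35.8 in type 2 and 27.6 in type 1 cells, and a UMI was found in 1.90% of progenitor-gate cells. Ccl5 attracts T cells and other leukocytes. Cxcl16, a membrane-bound chemokine for CXCR6, stood at 641 CPM, against 23.3 and 46.0. Ccl17, the partner of Ccl22 at CCR4, was the exception in its spread: 102 UMIs lay in 8 cells, 74 of them in 1 Lin+ control cell.

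Co-stimulatory genes had no common direction: of 9 measured against type 2 cells 0 were past the fold in all libraries, and against type 1 cells 2 of 7 were higher and 1 lower. Cd40, the receptor for helper T cell signals, stood at 117 CPM, against 28.7 in type 2 and 21.5 in type 1 cells. Cd83 was at 242 CPM, against 305 and 153, and Cd86, a ligand of CD28, at 26.9, against 50.2 and 64.4. Cd83 and Cd86 were thus not above type 2 cells at the transcript level. Il15ra, which presents interleukin 15 to lymphocytes, was at 219.7 CPM, against 3.58 and 12.3. Il12b, a subunit of interleukin 12, had 17 UMIs in 6 of the migratory cells and 0 in either conventional class, and Tnfrsf4 (OX40) had 36 UMIs against 0 in both. The checkpoint ligand Cd274 (PD-L1) had 9 UMIs and Pdcd1lg2 2.

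Genes of cell shape and movement were more often higher than lower: 11 of 24 against type 2 cells with 1 lower, and 12 of 22 against type 1 cells with 5 lower, median log2 ratios 1.10 and 2.19. Tbc1d4, a Rab GTPase-activating protein, was at 2354 CPM, against 28.7 and 126. Tmem123 was at 2300.1 CPM, against 102 and 46.0, and Marcks, which links actin to the membrane, at 1619, against 425 and 463. Coro1a, an actin regulator of blood cells, was lower than in both classes, at 242 CPM, against 1238 and 1089, and against type 1 cells Rac2, Itgb7, Itgb2 and Lmnb1 were lower as well. Itgb7, an integrin subunit, had 1 UMI in the 50 cells. Actb itself was 1.29 times type 2 and 1.08 times type 1 cells.

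The mature dendritic program of mouse tissues is a list drawn from general knowledge of such cells. Like the other lists it was chosen with earlier results of these data known, so its counts describe the cells and are no test. It had 19 of 30 measured genes above type 2 cells and 0 below, median log2 ratio 4.75, and 19 of 28 above type 1 cells with 2 below, median 4.41. H2-M2, a non-classical MHC class I gene on chromosome 17 that is in this list and in the class I list, had 264 UMIs in 34 of 50 cells and 0 in type 2 and type 1 cells, a level at least 220.2-fold and 129-fold higher when each class is set at the floor of 3 UMIs. Synpo2, Slc4a8, Serpinb6b and Slco5a1, with 85, 73, 79 and 57 UMIs, were likewise at 0 in both classes. Epsti1, an interferon-inducible gene, was at 3627 CPM, against 127 and 156. Fabp5, a fatty acid binding protein, was at 1641 CPM, against 37.6 and 3.07. Apol7c, an apolipoprotein L family member, was at 735 CPM, against 0 and 9.20. Most other interferon genes did not follow Epsti1. Of 11 measured against type 1 cells, 1 (Irf1) was higher and 6 were lower, where 8.88% of all measured genes were higher and 18.7% lower. Of 10 measured against type 2 cells, 1 was higher and 1 lower, where 6.08% of all were higher and 6.86% lower.

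**Figure D3:**
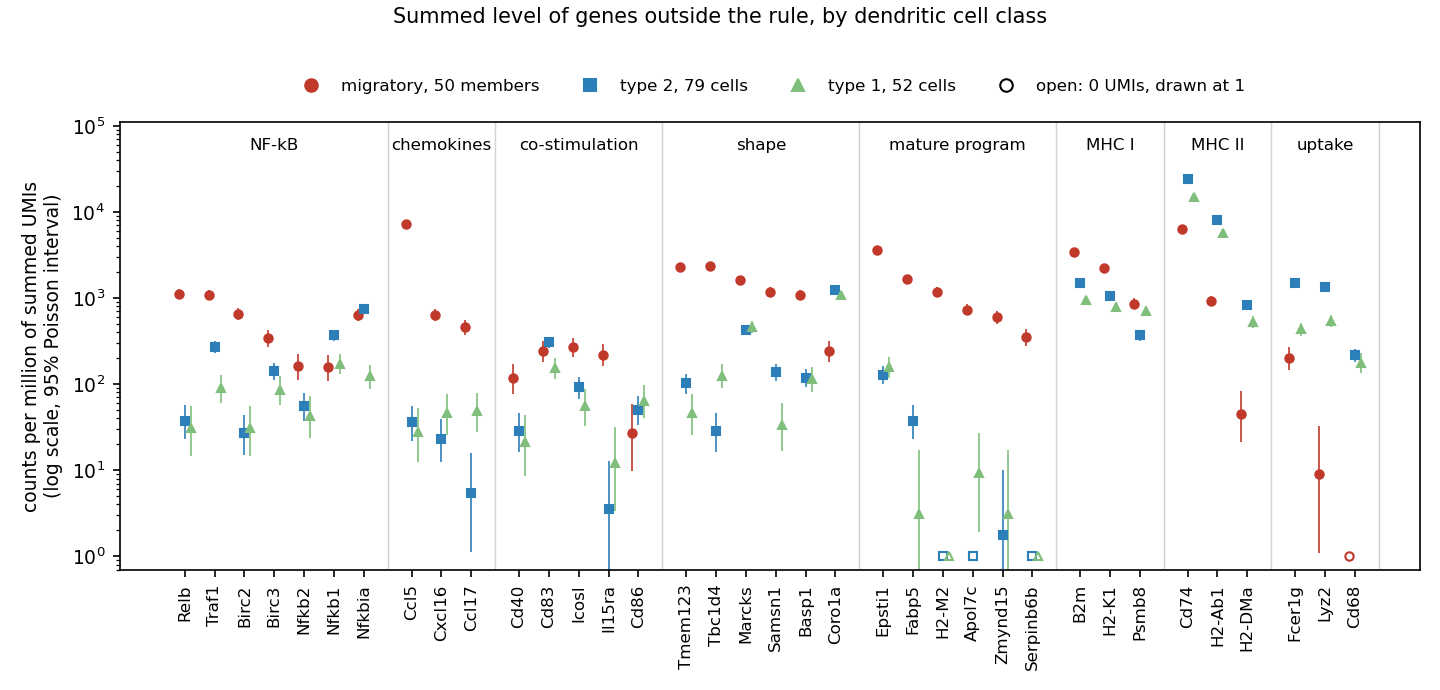
Summed level in CPM (y axis, log scale, bars 95% Poisson intervals) of genes outside the rule, grouped by role, in the 50 migratory cells (circles), 79 type 2 cells (squares) and 52 type 1 cells (triangles); open symbols at 1 are 0 UMIs. Relb, Ccl5, Tbc1d4 and H2-M2 stand above both conventional classes, Cd83 and Cd86 do not, and the MHC class II and uptake genes stand below.

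Some antigen uptake and stress genes were lower, and 0 of either list were higher. Against type 2 cells 3 of 15 measured uptake and sensing genes were lower, against 6.86% of all measured genes, and their median log2 ratio was -5.23. Lyz2, lysozyme, was at 8.97 CPM, against 1355 and 543, Fcer1g, the shared chain of Fc receptors, at 202, against 1505 and 436, and Cd68, a lysosomal protein, had 0 UMIs, against 217 and 178 CPM. Immediate early and heat shock genes, which digestion of tissue induces, were lower for 9 of 21 against type 2 and 8 of 19 against type 1 cells, and higher for 0. Fos was at 22.4 CPM, against 819 and 362. Their part in the other differences was not tested. Oxidative phosphorylation genes were nearly level, with 0 of 22 higher and 1 lower against either class.

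MHC class I and class II genes parted. Of 14 class I genes, 6 were higher than in type 2 cells and 5 than in type 1 cells, and 0 were lower. B2m, the light chain of all class I molecules, was at 3403 CPM, against 1475 and 942. Nlrc5, the transactivator of class I genes, was at 112 CPM, against 25.1 and 18.4. Reads of H2-K1, H2-D1 and H2-Q7 can be split among near-identical copies, so those values are less certain. Of the class II genes, 9 of 11 were lower than in type 2 cells, median log2 ratio -1.94, 7 of 12 were lower than in type 1 cells, median -1.47, and 0 were higher. Cd74, the invariant chain, was at 6380.2 CPM, against 23871 and 14889.5. H2-DMb1, a subunit of the molecule that loads peptide, was at 8.97 CPM, against 779 and 561. Ciita, the transactivator of class II genes, was at 49.3 CPM, against 301 and 347, and had 0 UMIs in both Lin- libraries. Ctss, the protease that trims the invariant chain, was at 677 CPM, between 1082 in type 2 and 439 in type 1 cells.

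Cell by cell, the 4 transcripts Cd74, H2-Aa, H2-Ab1 and H2-Eb1 were a median of 0.287% of a migratory cell's UMIs, against 4.75% in type 2 and 2.97% in type 1 cells. These pooled medians mix libraries unlike in make-up, since most migratory cells were Lin- and nearly all type 2 cells Lin+. By library the migratory medians were 0.154% in Lin- iAdFASNKO and 0.365% in Lin- control, and 0.874% in Lin+ iAdFASNKO and 1.21% in Lin+ control. In the same order the type 1 medians were 1.86%, 3.61%, 2.53% and 3.38%. The type 2 medians were 4.66% in Lin+ iAdFASNKO and 4.96% in Lin+ control. Within the Lin+ libraries the migratory cells spread widely, to 5.66% in iAdFASNKO and 5.48% in control, while the highest Lin- migratory cells were at 2.60% in iAdFASNKO and 0.663% in control. At least 1% was reached by 4 of 31 Lin- iAdFASNKO and 0 of 3 Lin- control cells, and by 5 of 10 Lin+ iAdFASNKO and 3 of 6 Lin+ control cells. The Lin- control cell left out for its monocyte-marker UMIs stood at 1.83%. Haemoglobin transcripts, which dendritic cells are not known to make, differed between the fractions as well: migratory cells held a median of 16.5 and 10 haemoglobin UMIs in Lin+ iAdFASNKO and Lin+ control, and 0 in both Lin- libraries, and their part in the class II values was not tested.

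**Figure D4:**
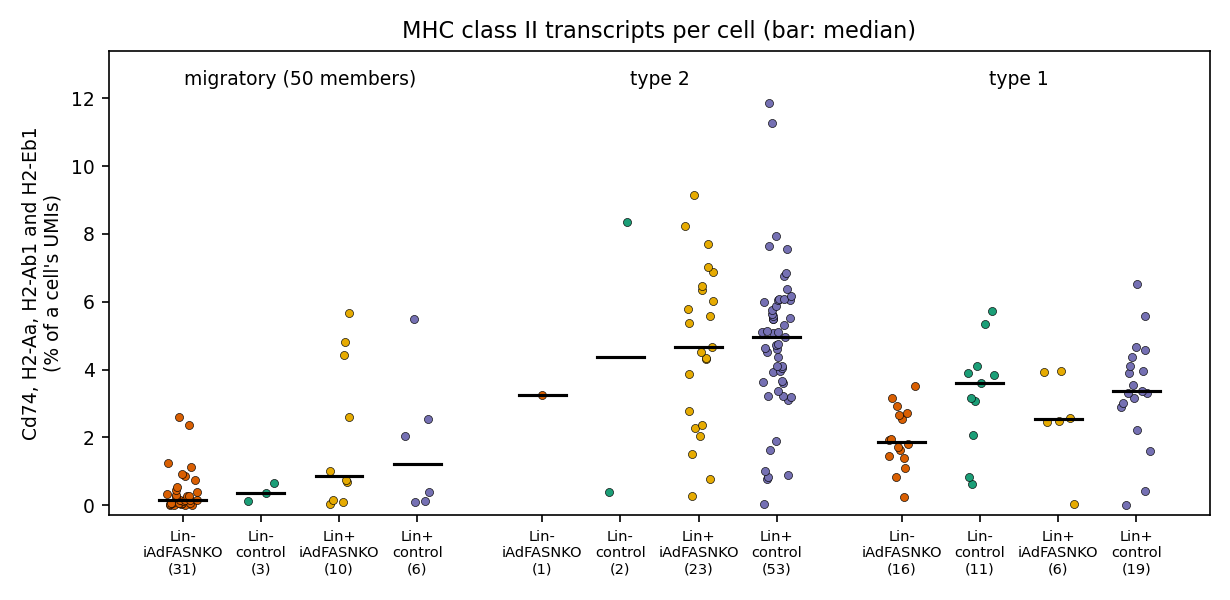
Percent of a cell's UMIs from Cd74, H2-Aa, H2-Ab1 and H2-Eb1 (y axis), 1 point per cell, by library (x axis, cell numbers in brackets) in migratory, type 2 and type 1 cells; bars are medians. Most migratory cells lie under 1%, with medians of 0.154% in Lin- iAdFASNKO and 0.365% in Lin- control and of 0.874% in Lin+ iAdFASNKO and 1.21% in Lin+ control.

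The 50 cells were sorted at 1% by this measure, 12 at or above and 38 below. The summed level of Ccl22, a gene of the rule, differed between these groups, and those of Ccr7 and Fscn1 were close. Ccr7 stood at 832 CPM in the upper cells and 842 CPM in the lower, and Fscn1 at 2179.7 and 1924. Cd83 was at 488 CPM in the upper cells and 130.5 in the lower, a ratio of 3.74 (2.09 to 6.85), Fabp5 at 3126 and 965, a ratio of 3.24 (2.62 to 4.02), and Ccl22 at 1162 and 476, a ratio of 2.44 (1.76 to 3.39). Of the 81 Ccl22 UMIs in the upper cells, 26 were in 1 Lin+ iAdFASNKO cell and 26 in 1 Lin+ control cell, so its ratio rests largely on these cells. Ccl5 went the other way, at 5564 CPM in the upper cells and 8069 in the lower, a ratio of 0.690 (0.614 to 0.773). Of its 388 UMIs in the upper cells, 233 were in 1 Lin+ iAdFASNKO cell and 115 in 1 Lin- iAdFASNKO cell. The first of these cells lay just over the cut, at 1.005%, so the ratio of Ccl5 depends on single cells as well. The 50 cells share 4 libraries, and 8 of the 12 upper cells are from Lin+ libraries, so the part of the fraction in these ratios was not tested.

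Between genotypes, more genes were past 2-fold over all 56 members than over the 50 cells. Over all members 528 of 1209 measured genes, 43.7%, were past 2-fold in Lin- (15.6% higher and 28.1% lower in iAdFASNKO), and 627 of 1317, 47.6%, in Lin+ (17.8% higher and 29.8% lower). Without the 6 cells, 216 of 661 were past 2-fold in Lin-, 32.7% (18.2% higher and 14.5% lower), and 133 of 572 in Lin+, 23.3% (14.2% higher and 9.09% lower). Fth1, the ferritin heavy chain, shows the step: over all members it had 126 UMIs in Lin- iAdFASNKO and 451 in Lin- control, a ratio of 0.189, and without the 6 cells 126 and 7, a ratio of 2.17, and 1.14 without the deepest cells as well. Of the 12 named genes lower in iAdFASNKO over all members, 6 in Lin- and 5 in Lin+ stayed past 2-fold. Of the 12 higher ones, 5 in Lin- and 11 in Lin+ stayed past 2-fold, and 3 and 1 more had 0 UMIs in control.

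MHC class I genes were higher in the migratory cells of iAdFASNKO mice in Lin+. There 7 of 10 measured genes of class I processing were at least 2-fold higher and 0 lower, with a median log2 ratio of 1.35, against 14.2% of all measured genes higher and a median of -0.11. Without the deepest cell of each library 6 of 8 were higher, and the median was 1.38. B2m had 4466 CPM in Lin+ iAdFASNKO against 1843 in Lin+ control, a ratio of 2.42 (1.78 to 3.36), and 3311 CPM in Lin- iAdFASNKO against 1686 in Lin- control, a ratio of 1.96 (1.29 to 3.14). Per cell, B2m ran from 1670.5 to 6559 CPM in Lin+ iAdFASNKO with a median of 3840 CPM, against 198 to 2558 with a median of 2265 in Lin+ control, so the ranges overlap and the median control cell lies inside the iAdFASNKO range. In the type 1 and type 2 cells of the same libraries the B2m ratio was 0.831 (0.723 to 0.954) in Lin+ and 0.787 (0.503 to 1.21) in Lin-, and over all other cells 0.761 and 0.696, below 1 throughout. Psmb8 and Psmb9, subunits of the immunoproteasome that cuts peptides for class I, had Lin+ ratios of 2.79 (1.52 to 5.59) and 3.25 (1.16 to 12.6), and Tapbp, which loads those peptides, 3.62 (1.31 to 14.0). H2-Q7 had a Lin+ ratio of 3.49 (1.40 to 11.3). Without the deepest cells the Lin+ ratios of Psmb9, Tapbp and H2-Q7 were 2.41, 2.74 and 2.48, with intervals that hold 1.

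In Lin- the class I genes gave no common direction. Of 11 measured 3 were higher and 1 lower, median log2 ratio -0.69, and without the deepest cells 3 of 9 were higher and 1 lower, median 0.25. Over all 56 members the median was 0.68. Psmb8 was at 0.482 (0.284 to 0.858) and H2-K1 at 0.544 (0.389 to 0.775). Lin- control rests on 3 cells, 1 of which gave 16 of its 18 Psmb8 UMIs, and without the deepest cells Psmb8 stood at 1.77. Whether the fractions differ was not tested.

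**Figure D5:**
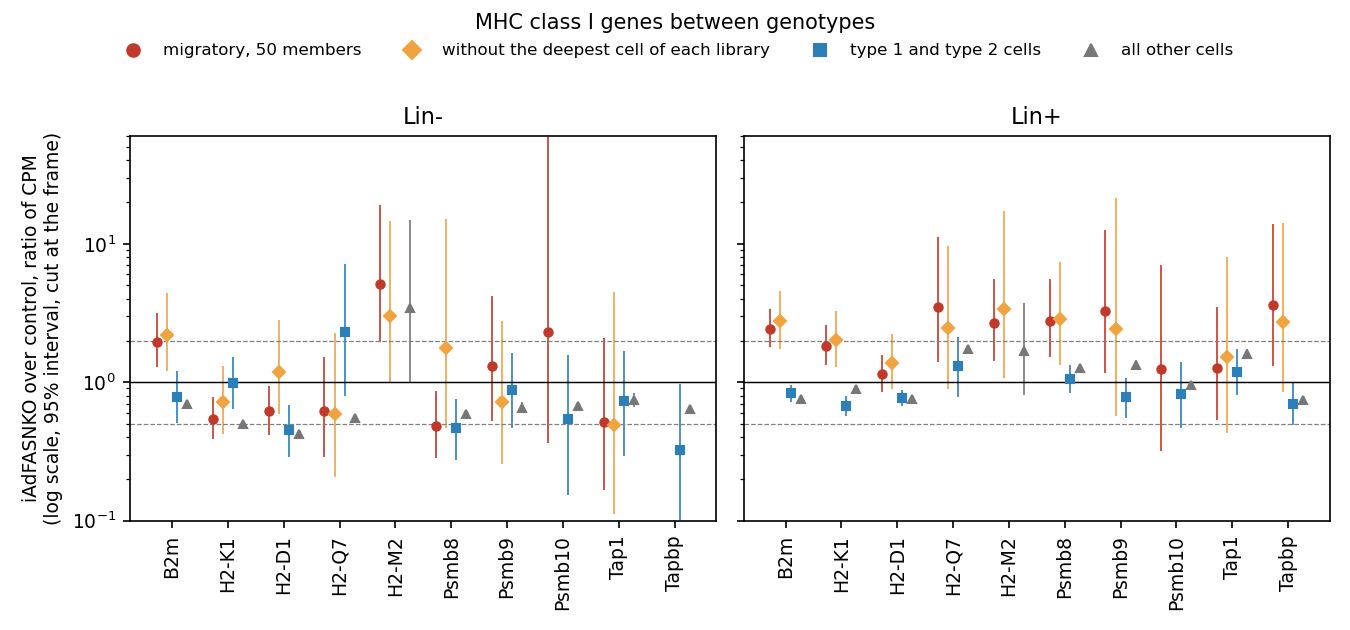
Ratio of CPM, iAdFASNKO over control (y axis, log scale, bars 95% intervals, drawn only to the frame), of MHC class I genes in Lin- (left) and Lin+ (right): the 50 migratory cells, the same without the deepest cell of each library, type 1 and type 2 cells together, and all other cells. Solid and dashed lines mark no difference and 2-fold, and a ratio with 0 UMIs in a group is not drawn. B2m lies at 1.96 in Lin- and 2.42 in Lin+ migratory cells, and below 1 in type 1 and type 2 cells and in all other cells.

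The genes that were past 2-fold in both fractions without the 6 cells included H2-M2, Mxd1, Mt1 and Txndc17. H2-M2 had 170 UMIs in Lin- iAdFASNKO and 4 in Lin- control, a ratio of 5.12 (1.96 to 19.0), and 79 in Lin+ iAdFASNKO against 11 in Lin+ control, a ratio of 2.67 (1.41 to 5.56). Without the deepest cells the ratios were 2.99 (0.999 to 14.7) in Lin- and 3.40 (1.07 to 17.2) in Lin+. It was found in 23 of 31 and 3 of 3 Lin- cells and 6 of 10 and 2 of 6 Lin+ cells, so the share of cells with a UMI does not follow the level in Lin-. Mxd1, a MYC antagonist, had ratios of 2.08 (0.776 to 7.84) in Lin- and 4.18 (1.52 to 16.0) in Lin+. Mt1, a metallothionein, had 2.59 (0.675 to 22.1) and 5.57 (2.95 to 11.9), but 92 of its 150 UMIs in Lin+ iAdFASNKO were in 1 cell. Txndc17, a thioredoxin family member, had 2.65 (0.691 to 22.6) and 4.99 (2.33 to 12.8). The Lin- intervals of Mxd1, Mt1 and Txndc17 hold 1. Without the deepest cells Mxd1 stood at 1.66 in Lin- and 3.68 in Lin+, Mt1 at 1.51 and 3.21, and Txndc17 at 2.94 and 2.90.

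Ccl5 and Epsti1 had larger ratios in Lin+ than in Lin-, a difference between fractions that was not tested. Ccl5 was at 8335 CPM in Lin- iAdFASNKO and 7916 CPM in Lin- control, and 7719 CPM in Lin+ iAdFASNKO and 1229 CPM in Lin+ control, so that Lin+ control alone was low, with ratios of 1.05 (0.862 to 1.30) in Lin- and 6.28 (4.40 to 9.28) in Lin+. Without the deepest cells the Lin+ ratio of Ccl5 was 3.11 (2.11 to 4.76). The medians over cells were 5652 CPM in the 10 Lin+ iAdFASNKO cells and 339 CPM in the 6 Lin+ control cells, whose highest was at 21739 CPM. Epsti1 had ratios of 1.94 (1.26 to 3.14) and 5.36 (3.65 to 8.17), with 254 of its 404 UMIs in 1 Lin+ iAdFASNKO cell. Without the deepest cells they were 1.22 and 8.49. Zmynd15, a zinc finger gene, had 48 UMIs in Lin- iAdFASNKO and 1 in Lin- control, and 85 in Lin+ iAdFASNKO against 0 in Lin+ control. Its Lin- ratio was 5.78, and 2.79 (0.471 to 113) without the deepest cells. Its annotated start overlaps that of Cxcl16 on the other strand (Zmynd15 at chromosome 11, 70459433 to 70466202, and Cxcl16 at 70453983 to 70459984), and Cxcl16 had ratios of 1.18 (0.473 to 3.80) and 2.64 (1.39 to 5.49), the second 4.81 without the deepest cells. Il15ra had 21 UMIs in Lin+ iAdFASNKO against 0 in Lin+ control, and in Lin- a ratio of 0.442 (0.174 to 1.33), and 0.241 without the deepest cells.

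The CCR4 ligand Ccl17, Fabp5 and Il4i1 had ratios below 0.5 in Lin+. Ccl17 had 2 UMIs in Lin- iAdFASNKO against 6 in Lin- control, and 5 in Lin+ iAdFASNKO against 89 in Lin+ control, most of the last in the 1 cell named above. Fabp5 had ratios of 0.723 (0.448 to 1.23) in Lin- and 0.306 (0.233 to 0.400) in Lin+, and 1.11 and 0.687 without the deepest cells. Il4i1, an amino acid oxidase that limits T cells and one of the 7 genes of the rule, had ratios of 0.712 in Lin- and 0.327 in Lin+, and 1.36 and 0.334 without the deepest cells, given as a description. The class II direction in Lin+ changed with single cells: Cd74 had ratios of 1.56 (1.08 to 2.32) in Lin- and 0.568 (0.499 to 0.647) in Lin+, and without the deepest cells 2.20 and 1.46, above 1 in both.

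Between genotypes over the 50 cells the NF-kB list had 0 of 8 genes higher and 3 lower in Lin-, where 18.2% of all measured genes were higher and 14.5% lower. In Lin+ it had 0 of 10 higher and 0 lower, where 14.2% were higher and 9.09% lower. Its median log2 ratios were -0.16 in Lin- and -0.45 in Lin+, and without the deepest cells -0.11 with 1 of 8 higher and 3 lower, and -0.69 with 1 of 8 higher and 2 lower. The mature program had 4 of 21 higher and 4 lower in Lin-, median -0.47, and 5 of 20 higher and 2 lower in Lin+, median 0.20. Without the deepest cells its medians were 0.28 and 0.18. Over all 56 members the same medians were 1.20 and 1.18 for NF-kB and 1.19 and 1.72 for the mature program. Shape genes had 2 of 16 higher and 2 lower in Lin-, and 1 of 16 higher and 1 lower in Lin+.

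Fasn, the gene named in the knockout, is not informative here: its deletion is placed in adipocytes, and the stromal vascular fraction leaves these out. The migratory cells held 1 UMI of it. Of the lipid and cholesterol list only 1 gene was measured in each genotype comparison. Abcg1, a cholesterol exporter, was at 215 CPM in migratory cells, against 60.9 in type 2 and 24.5 in type 1 cells, and had 27 UMIs in Lin- iAdFASNKO and 0 in Lin- control, and 17 in Lin+ iAdFASNKO and 4 in Lin+ control, a Lin+ ratio of 1.58 (0.515 to 6.45) that holds 1. Fabp4, Lpl and Apoe, abundant in other cells of fat tissue, had 5, 1 and 1 UMIs in the 50 cells.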

How the data were processed

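Single-cell RNA was counted in 4 libraries of stromal vascular cells. The authors deposited raw UMI counts per gene and barcode, per the file headers, as 1 matrix for each genotype with a tag for the fraction. The genotype of a matrix was read from its name and the fraction from the labels. The submitters' processing notes name Cell Ranger 3.1.0, Seurat 3.0 and mm10, while 3.0.2 is the software version in the matrix header. The barcode filter used before deposit is not given in the sources used here. Libraries held 21622291 to 33016494 UMIs.

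Cells kept had at least 300 genes, 500 UMIs and at most 10% mitochondrial UMIs. Counts were summed over member cells per library and given as CPM. Intervals are 95% exact Poisson for levels, exact conditional binomial for ratios of levels, Clopper-Pearson for shares and log-normal (Katz) for ratios of shares, and cover counting error only. A gene needed 20 UMIs over both groups to be measured. A gene at 0 in a group was set at a floor of 3 counts per group for a bound. No test was run, since each group is 1 library. Genes named were those of the lists with at least 20 UMIs, and up to 12 genes per direction past 2-fold with the same direction in the other fraction, in at least 5 member cells, ordered by the interval bound nearest to 1. Further genes were named after their values were seen. The members and lists were chosen with earlier results of these data known. The split by other-class markers and removal of the deepest cells were added after the cells were seen. Doublets were kept in the main values, and cells that Scrublet called were removed in an alternative. The calculations were tested on simulated data and run in Python 3.11.15 with numpy 2.4.6, scipy 1.17.1, pandas 2.3.3 and scanpy 1.11.5. Alternatives also changed the rule, the cell filter, the depth per cell, the scaling and the count minimum.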

Additional observations from a re-analysis of the deposited data

How the results depend on the processing

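The share ratios, the counts of genes past 2-fold, the list medians between genotypes and the ratios of named genes, over all 56 members, were recomputed under other settings, and with 1 library per group no replicate could be left out. No paired analysis was possible because each group is 1 library and no test was run. The Lin- share ratio of 3.63 lay between 2.08 and 8.14 under the settings run, and its interval held 1 over Ptprc cells and with at least 10 class II UMIs (3.05, 0.869 to 10.7). The value of 8.14, from thinned cells, rests on 20 iAdFASNKO and 2 control members. The Lin+ ratio of 0.894 became 3.36 with the stricter cell filter and 2.80 with cells thinned to 2000 UMIs, both with intervals that hold 1. Genes past 2-fold in Lin-, 528 in all, numbered 298 with at least 4 genes of the rule, 215 with at least 10 class II UMIs, 291 with the stricter filter, 350 without Scrublet calls, 2974 with no minimum, 143 with at least 50 UMIs, 262 without the top cell of each gene, 216 without members of another class, 350 without shared barcodes, and 205 without both members of another class and the deepest cells. In Lin+, 627 in all, the same settings gave 133, 107, 182, 2602 (no minimum), 183, 258, 133, 138 and 103, the Scrublet setting being within 1.5 times. Against type 2 cells 669 became 1546 in the Lin+ libraries alone. Of 204 recomputed list medians 45 had another sign, 18 of them of medians at least 2-fold over all members and 27 of smaller ones. Among the smaller ones, class I in Lin- was 0.68 and became -0.69 without other-class members, oxidative phosphorylation in Lin- was -0.39 and became 0.29, and survival in Lin+ was 0.65 and became -0.70. In Lin- the 2-fold medians were dissociation stress (1.65 with 4 genes, 1.64 with class II UMIs, 0.27 without other-class members), cell cycle (0.56 without top cells, 1.53), and NF-kB, shape and mature program without other-class members (-0.16, -0.28 and -0.47). In Lin+ the 2-fold medians were NF-kB (-0.45 with 4 genes and without other-class members, -0.18 with class II UMIs, -0.28 as a mean of scaled cells, -0.49 without shared barcodes) and class II (-0.66, -0.70, -1.57 with the stricter filter, -0.66 and -0.70). Of named-gene log2 ratios 24 changed sign, 164 moved and 342 did neither. Signs changed in Lin- for Hmgb1 (0.32 without the top cell) and, without other-class members, Fth1 (1.12), Gpx1 (0.34) and S100a6 (0.63). In Lin+, with 4 genes and equally without other-class members, they did for Aplp2 (0.42), Fth1 (0.31), Gnas (0.38) and Vim (0.39). With class II UMIs Aplp2 was 0.80, Fth1 0.61, Gnas 0.27, Serinc3 0.011 and Vim 0.46. With the stricter filter Aplp2 was 0.58, Ctnnb1 0.25 and Gnas 0.0036. Without shared barcodes Aplp2 was 0.37, Fth1 0.63, Gnas 0.33 and Vim 0.36. The cause was not tested. Depth limits all of this: Lin- control rests on 3 cells and 13644 UMIs after the other-class members are left out.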
